A study of Homo sapiens with 6 samples.

Results

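Replication-dependent histone genes encode the histones that package newly made DNA: the linker histone H1 and the core histones H2A, H2B, H3 and H4. Their symbols in the deposited count table were matched by name (H1-1 to H1-6, and the H2AC, H2BC, H3C and H4C families), which found 51 genes among 25330 counted symbols, 4 of class H1, 11 of H2A, 15 of H2B, 10 of H3 and 11 of H4. Of these, 41 lie on chromosome 6, 9 on chromosome 1 and 1 on chromosome 12 (RefSeq positions on GRCh38.p14). The libraries come from MDA-MB-231, an established human breast cancer line of the triple-negative type, in 2 genotypes: RNASEH2A knockout cells (columns RN1, 3 libraries) and control cells (CTRV2, 3 libraries). RNASEH2A encodes the catalytic subunit of RNase H2, which removes ribonucleotides from DNA and cuts the RNA of RNA-DNA hybrids. No treatment is listed for either genotype, the cells grew in serum-supplemented medium, RNA was taken at different passages in each group, and all 6 carry the same batch label. No source used here says whether the RN1 cells are a clone or a pool, or what the CTRV2 cells carry. Differences are therefore set against the variation among passages, which may be smaller than that among independent knockouts.

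Replication-dependent histone genes have no introns in their main form, sit in clusters, and are transcribed in S phase from the histone locus body. Their main mRNA does not end in a poly-A tail: U7 snRNP and the stem-loop binding protein SLBP direct cleavage just after a conserved stem-loop, and the mRNA is destroyed when DNA synthesis stops. Some of these genes also make longer, polyadenylated RNAs that run past the stem-loop, best known from cells that leave the cycle or differentiate. Libraries selected for poly-A RNA, as here per the labels' protocols, therefore count mainly the polyadenylated forms and any main form carried through the selection. In bulk RNA, a change in the share of cells in S phase and a change in RNA per cell cannot be told apart.

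The stem-loop is shown because it marks where the main mRNA ends. In GENCODE 29 transcripts, 23 of the 51 genes hold a match, in 5 forms, and 18 of these 23 have a transcript that goes on for more than 100 bases past it. Of the 28 without a match, 23 have a model that ends at the stop codon or none at all, so no stem-loop could be found in them. The stem-loops below, in capitals with 5 flanking bases on each side and written as DNA, come from genes that were higher in knockout cells (H2AC6, H2AC11, H2BC4, H2BC21, H4C8, H4C9) and from genes that were not called (H2BC18, H3C10).
H2AC6: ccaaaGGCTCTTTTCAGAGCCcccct
H2AC11: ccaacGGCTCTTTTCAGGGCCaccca
H2BC4: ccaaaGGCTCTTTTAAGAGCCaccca
H2BC21: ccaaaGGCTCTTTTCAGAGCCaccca
H4C8: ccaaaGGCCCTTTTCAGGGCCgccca
H4C9: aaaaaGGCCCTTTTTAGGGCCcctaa
H2BC18: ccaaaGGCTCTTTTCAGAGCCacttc
H3C10: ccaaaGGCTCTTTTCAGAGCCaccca
The same 16 bases, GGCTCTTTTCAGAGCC, stand in H2AC6 and H2BC21, which rose, and in H2BC18 and H3C10, which did not pass the test. Of the 11 genes that hold this form 7 were tested and 3 rose, beside 11 of 28 tested genes in all. At most, an annotated transcript runs 1128 bases past the stem-loop in H2AC6, 1761 in H2AC11, 1729 in H2BC21, 1655 in H4C8, 212 in H4C9 and 116 in H2BC4, and 1479 in H2BC18 and 769 in H3C10.

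Knockout libraries held 31596286, 27928670 and 28073125 counts, and control libraries 29635083, 28682798 and 25419877. A count of 0 in a library allows up to 3 counts, or 0.0949 to 0.118 CPM (counts scaled to library size), which covers counting error only. Of the values from 1 to 50 in these histone genes 77.9% were even, against 69.5% over all symbols, so single reads may not be the unit of counting and the limit may be too low. RNASEH2A itself was at 7, 8 and 16 counts in the libraries labelled knockout and at 10, 6 and 15 in control libraries (exact two-sided permutation p = 0.8; this design allows no p below 0.1). Its RNA was near the limit of counting in both groups and does not check the labels, so every direction given here is between libraries as labelled. Over all genes, knockout replicate 1 stood apart from knockout replicates 2 and 3 (chi-square per degree of freedom 37 and 24, against 6.93 between those), and control replicate 1 from control replicates 2 and 3 (12.1 and 10.8, against 2.48). The mesenchymal genes VIM and AXL averaged 721 and 1921 CPM in knockout cells and 735 and 1945 CPM in control cells, and ESR1 had 0 counts in every library. The progesterone receptor gene PGR had 10, 12 and 8 counts in knockout libraries, against 0, 2 and 0 in control libraries, and the leukocyte marker PTPRC had 0 counts in each knockout library and 6, 4 and 6 in control libraries. Of 8 tested markers of this line and of other cell types, 0 passed by edgeR, DESeq2 or limma-voom, with 1 higher and 3 lower at an unadjusted p under 0.05. The 3 lower were CD44, MSN and PECAM1, and the 1 higher was the epithelial gene EPCAM. EPCAM had been listed as at or near 0 in this line but was counted in both groups. It had 15.2, 20.85 and 22 CPM in knockout libraries, against 13.09, 16.55 and 15.75 CPM in control libraries, which overlapped (edgeR adjusted p = 0.166).

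A subset of the histone genes was 1.96-fold to 2.99-fold higher in RNASEH2A knockout cells, while other genes of the same classes and clusters did not pass the test, some of them with too few counts to show a change of that size. Of the 51 genes, 8 had no count in any library, 15 had counts but fell below the filter on low counts, and 28 were tested. By edgeR's quasi-likelihood test with Benjamini-Hochberg adjustment over 14199 genes (adjusted p under 0.05), 11 of the 28 rose, 0 fell and 17 did not pass; over all tested genes 5.88% rose and 6.22% fell. The count of 0 for falls was also 0 at an unadjusted p under 0.05, in DESeq2 and in limma-voom. The median log2 fold change over the 28 was 0.65, against 0.0035 over all tested genes, and it was 1.23 over the 11 that rose and 0.11 over the other 17. The gap between the 11 and the 17 is in part built in, since the call depends on the fold change. The median over the tested members was 0.38 without knockout replicate 2, when 29 were tested, while these 11 and H2BC17 rose. Without knockout replicate 1 the 11 genes, H2BC6 and H3C10 rose, and without control replicate 1 the same 11. Every knockout library lay above every control library at 14 of the 28 genes, against 16.1% of all tested genes. The reverse held at 2, and its share over all tested genes was not taken, so that count cannot be judged. The 14 include H2BC6, and the 28 also H2AC12 and H4C16. These 3 reached the filter level in all knockout libraries but not in all control libraries, so being high in knockout helped them into the test.

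The genes that rose are mostly also the well counted ones. In control libraries alone they held 202 (H2BC15) to 6278 (H2BC12) counts. H1-4, which did not pass, held 254 there, so the ranges overlap. Totals over all libraries include the raised knockout counts. The genes that rose held 777 to 19485 counts over the 6 libraries, against 56 to 486 for the tested genes that did not pass. The standard errors of their log2 fold changes were 0.08 to 0.19 against 0.20 to 0.65. Summed over the 51 genes, the level was 410, 464 and 466 CPM in knockout libraries, against 212, 230 and 227 CPM in control libraries. The 11 genes that rose held 94.0% of all histone counts, H2BC12 alone 33.8% and H1-2 22.3%. Without H2BC12 the sum was 279, 305 and 303 CPM in knockout libraries, against 143, 152 and 147 CPM in control libraries. The 17 tested genes that did not pass summed to 17.3, 20.99 and 19.04 CPM in knockout libraries, against 17.1, 17.8 and 17.5 CPM in control libraries.

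**Figure D1:**
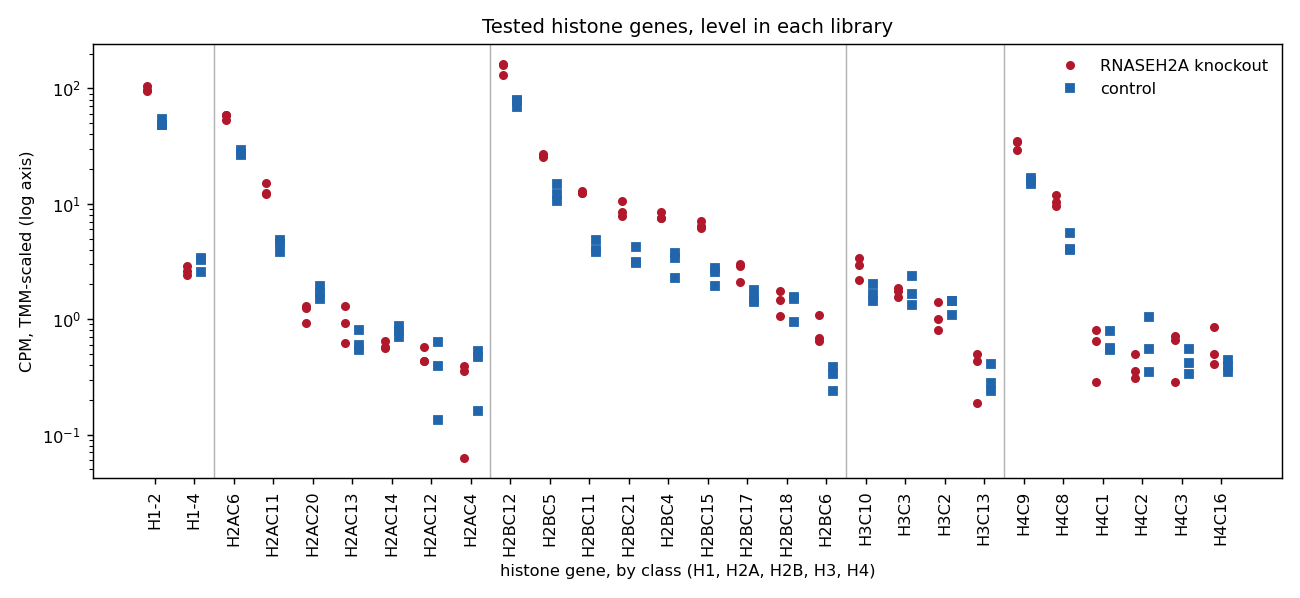
Level of each of the 28 tested histone genes in every library, as TMM-scaled CPM on a log axis, by class. Circles are the 3 RNASEH2A knockout libraries and squares the 3 control libraries. At the 11 genes that rose, such as H2BC12 and H2AC6, all circles lie above all squares; at H1-4 and H2BC18 they overlap.

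H1-2 (chromosome 6, 26055740 to 26056470), a main somatic linker histone, had 95.3, 96.5 and 104 CPM in knockout libraries, against 48.2, 54.7 and 47.9 CPM in control libraries. The groups did not overlap, and the gene rose by 0.97 ± 0.08 (SE) on the log2 scale (edgeR adjusted p = 0.000285). H1-4 (chromosome 6, 26156329 to 26157115), another somatic linker histone, had 2.43, 2.91 and 2.60 CPM in knockout libraries, against 2.57, 3.23 and 3.41 CPM in control libraries. These values overlapped, with a log2 fold change of -0.21 ± 0.20 (adjusted p = 0.537). The ratio of H1-2 to H1-4 counts was 39.2, 33.1 and 40.1 in knockout libraries, against 18.8, 16.95 and 14.02 in control libraries, without overlap. H1-2 alone separated the groups by more than H1-4 varied. This ratio therefore had to separate them and adds no evidence of its own. H1-1 was counted only in knockout replicate 3, with 6 counts, and the testis-type H1-6 had none.

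Of 7 tested H2A genes, 2 rose. H2AC6 (chromosome 6, 26124172 to 26124690) stood at 52.7, 58.4 and 58.6 CPM in knockout libraries, against 29.02, 26.7 and 26.8 CPM in control libraries (log2 fold change 1.04 ± 0.08, adjusted p = 0.000265). H2AC11 (chromosome 6, 27133043 to 27133535) stood at 12.4, 15.2 and 12.3 CPM in knockout libraries, against 4.86, 3.86 and 4.603 CPM in control libraries (1.58 ± 0.15, adjusted p = 0.000436). Both encode canonical H2A, the partner of H2B in the nucleosome, and both were above control in every library.

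The other tested H2A genes were counted far less and none passed. H2AC20 (chromosome 1, 149886918 to 149887411) had 0.934, 1.29 and 1.25 CPM in knockout libraries, against 1.96, 1.68 and 1.51 CPM in control libraries, lower in every knockout library but short of the threshold (-0.57 ± 0.26, adjusted p = 0.188). H2AC14 had 0.561, 0.575 and 0.642 CPM in knockout libraries, against 0.878, 0.702 and 0.794 CPM in control libraries (-0.42 ± 0.31, adjusted p = 0.423). These are the 2 tested histone genes at which the knockout libraries all lay below the control libraries. H2AC13 had 20, 36 and 26 counts in knockout libraries, against 16, 23 and 15 in control libraries. H2AC12 had 14, 12 and 16 counts in knockout libraries, against 4, 18 and 10 in control libraries. H2AC4 had 2, 11 and 10 counts in knockout libraries, against 14, 15 and 4 in control libraries. The groups overlapped at all 3. Below the filter, H2AC21 had 3, 5 and 2 counts in knockout libraries, against 2, 0 and 5 in control libraries, and H2AC17 had 1, 4 and 0 counts in knockout libraries, against 1, 3 and 1 in control libraries. H2AC1 and H2AC16 had none.

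H2B had the most genes that rose, 6 of 9 tested, and all 9 had a positive log2 fold change, although H2BC18 stood at -0.093 without control replicate 1. H2BC12 (chromosome 6, 27138293 to 27146858) reached 131, 159 and 164 CPM in knockout libraries, against 69.2, 77.9 and 79.6 CPM in control libraries (1.00 ± 0.10, adjusted p = 0.000515). H2BC5 (chromosome 6, 26158121 to 26171349) had 25.5, 27.1 and 26.3 CPM in knockout libraries, against 10.6, 14.9 and 12.1 CPM in control libraries (1.07 ± 0.12, adjusted p = 0.00116). H2BC11 (chromosome 6, 27132316 to 27132795) had 12.9, 12.3 and 12.4 CPM in knockout libraries, against 4.86, 3.79 and 3.97 CPM in control libraries (1.57 ± 0.14, adjusted p = 0.000304). In each of these the lowest knockout library was well above the highest control library. H2BC21 (chromosome 1, 149884459 to 149886682) had 7.88, 10.6 and 8.42 CPM in knockout libraries, against 3.04, 3.16 and 4.21 CPM in control libraries (1.37 ± 0.18, adjusted p = 0.00202). H2BC4 (chromosome 6, 26113170 to 26123926) had 7.48, 7.58 and 8.56 CPM in knockout libraries, against 2.30, 3.75 and 3.41 CPM in control libraries (1.32 ± 0.19, adjusted p = 0.00316). H2BC15 (chromosome 6, 27838569 to 27839110) had 6.35, 7.12 and 6.17 CPM in knockout libraries, against 2.80, 1.93 and 2.54 CPM in control libraries (1.43 ± 0.18, adjusted p = 0.00158). H2BC21 was the only gene outside chromosome 6 among the 11 that rose.

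A further pair of H2B genes was higher in every knockout library without passing. H2BC17 had 2.99, 2.09 and 2.89 CPM in knockout libraries, against 1.42, 1.51 and 1.79 CPM in control libraries (0.76 ± 0.24, adjusted p = 0.0674). H2BC6 had 22, 30 and 18 counts in knockout libraries, against 10, 11 and 6 in control libraries (1.30 ± 0.39, adjusted p = 0.0616). H2BC6 is 1 of 3 tested histone genes, with H2AC12 and H4C16, that reached the filter level in all knockout libraries but not in all control libraries, so its entry into the test depended on the group where it was high. H2BC18 (chromosome 1, 149782689 to 149812370), whose coding sequence is 94.4% identical to that of H2BC21, had 47, 49 and 30 counts in knockout libraries, against 28, 44 and 38 in control libraries. These overlapped (0.11 ± 0.31, adjusted p = 0.855). Below the filter, H2BC13 had 6, 12 and 8 counts in knockout libraries, against 2, 12 and 6 in control libraries. H2BC3 had 4, 2 and 10 counts in knockout libraries, against 4, 12 and 6 in control libraries. H2BC14 had 8, 2 and 6 counts in knockout libraries, against 2, 2 and 2 in control libraries. None of these 3 separated the groups, and H2BC1, H2BC9 and H2BC10 had no count.

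H3 was the class with no call, in 4 tested genes by edgeR and also by DESeq2 and limma-voom, although 1 had an unadjusted p under 0.05. These 4 genes held 58 to 390 counts over the 6 libraries, fewer than any gene that rose (777 or more). Those totals include the raised knockout counts. In control libraries alone H3C3 held the most of the 4, 150 counts, against 202 in H2BC15, the fewest of a gene that rose. The part of depth in the lack of H3 calls was not tested. H3C3 and H3C2, given below, lay several standard errors under 0.97, the smallest log2 fold change of a gene that rose. The gene with an unadjusted p under 0.05, H3C10 (chromosome 6, 27810051 to 27810536), had 2.18, 3.41 and 2.96 CPM in knockout libraries, against 1.65, 2.00 and 1.43 CPM in control libraries. Its groups did not overlap (0.74 ± 0.25, adjusted p = 0.083). H3C3 had 1.74, 1.55 and 1.85 CPM in knockout libraries, against 2.36, 1.33 and 1.67 CPM in control libraries (-0.06 ± 0.27, adjusted p = 0.907). H3C2 had 0.810, 1.40 and 0.998 CPM in knockout libraries, against 1.08, 1.44 and 1.43 CPM in control libraries (-0.30 ± 0.30, adjusted p = 0.567). Both overlapped between the groups, as did H3C13 with 6, 12 and 14 counts in knockout libraries, against 12, 8 and 6 in control libraries. Among the untested, H3C1 had 8, 15 and 7 counts in knockout libraries, against 4, 6 and 4 in control libraries, without overlap. H3C12 had 4, 7 and 8 counts in knockout libraries, against 6, 8 and 8 in control libraries. H3C8 and H3C15 had 2 and 1 counts in all, and H3C6 and H3C14 none. H3C14 and H3C15 have identical coding sequences in GENCODE 29, as do H4C14 and H4C15, and H4C11 and H4C12, so reads of these copies cannot be assigned with certainty.

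Among H4 genes, which encode one and the same core histone from many copies, 2 of 6 tested rose. H4C9 (chromosome 6, 27139282 to 27139678) had 28.96, 34.7 and 34.4 CPM in knockout libraries, against 14.9, 15.7 and 16.6 CPM in control libraries (1.05 ± 0.10, adjusted p = 0.000515). H4C8 (chromosome 6, 26285126 to 26285534) had 10.3, 11.97 and 9.56 CPM in knockout libraries, against 4.08, 4.00 and 5.56 CPM in control libraries (1.23 ± 0.17, adjusted p = 0.00223). Neither overlapped between the groups. H4C9 lies inside the RefSeq span of H2BC12, on the other strand, and no source used here gives the strand setting of the count, so reads of this pair may not be fully separated. The 4 other tested H4 genes had 8 to 26 counts per knockout library and 10 to 31 per control library, and all overlapped. They were H4C16 (0.56 ± 0.41), H4C3 (0.35 ± 0.44), H4C1 (-0.10 ± 0.43) and H4C2 (-0.75 ± 0.47). Below the filter, H4C12 had 7, 8 and 13 counts in knockout libraries, against 4, 7 and 7 in control libraries. H4C14 had 6, 10 and 10 counts in knockout libraries, against 6, 2 and 8 in control libraries. H4C11 had 2, 4 and 4 counts in knockout libraries, against 8, 4 and 4 in control libraries. H4C15 and H4C5 had 4 and 2 counts in all, and none of these 5 was tested.

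**Figure D2:**
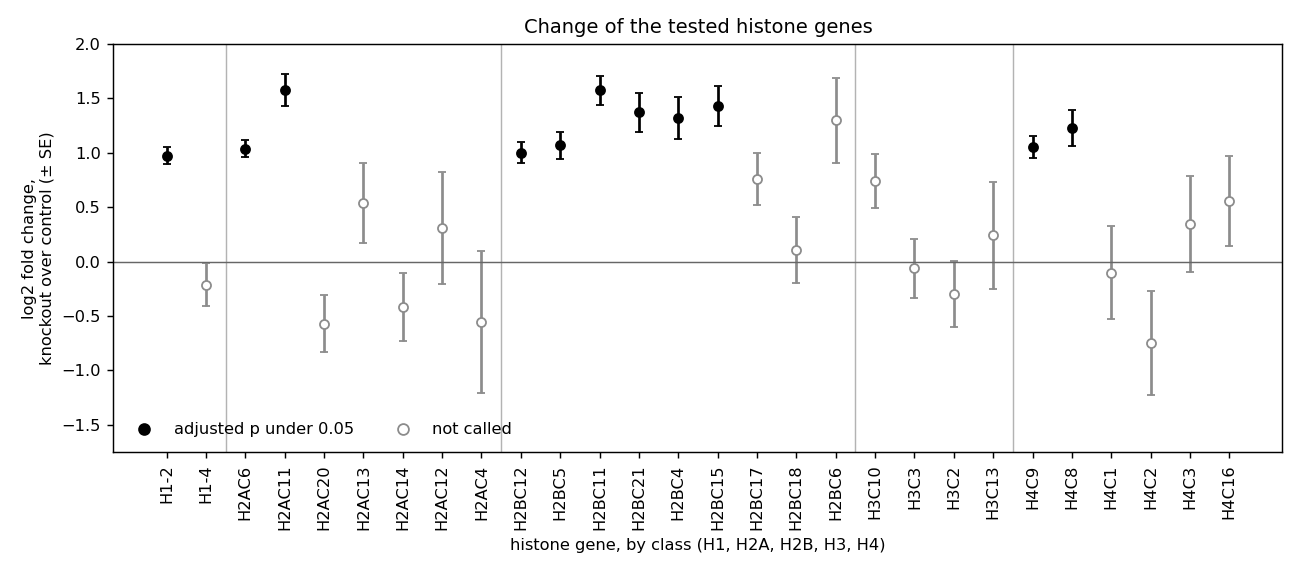
Log2 fold change of each tested histone gene, knockout over control, with its standard error, by class. Filled points passed the edgeR test and open points did not; the filled points lie between 0.97 and 1.58, and the open ones between -0.75 and 1.30.

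On chromosome 6 the genes fall into 3 groups along a stretch from H2AC1 to H2BC17 (25726063 to 27893891). In the proximal group, from H2AC1 to H4C8, 5 of 13 tested genes rose (H1-2, H2BC4, H2AC6, H2BC5 and H4C8). All of these lie on the distal side of H3C3: from H4C1 to H3C3 (26021649 to 26045869) 5 genes were tested and all had a negative log2 fold change, between -0.75 and -0.06, with no call. This run was singled out after its values were seen, and H4C1 and H3C3 turned positive with 1 library left out (H4C1 at 0.22 without knockout replicate 2, H3C3 at 0.195 without control replicate 1). In the middle group, from H2BC11 to H2AC12 (27132316 to 27147562), 4 of 5 rose, with H2AC12 the exception. In the distal group, from H2BC13 to H2BC17 (27807479 to 27893891), 1 of 5 rose, H2BC15, and the others ran from -0.42 to 0.76. On chromosome 1, from H2BC18 to H2AC21 (149782689 to 149887965), 1 of 4 tested genes rose, and H4C16 on chromosome 12 did not pass (adjusted p = 0.421).

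Genes of other kinds in the chromosome 6 stretch were also shifted upward. In that stretch 20 genes that are not histone genes of these families were tested. By edgeR 6 rose and 0 fell (0 also at an unadjusted p under 0.05), against 5.88% and 6.22% of all tested genes. The median log2 fold change of the 20 was 0.33. These 6 were the butyrophilin genes BTN2A2 (0.35 ± 0.09) and BTN2A1 (0.44 ± 0.08), the non-coding HCG11 (0.74 ± 0.19), the serine protease gene PRSS16 (2.12 ± 0.25), the pseudogene ZNF204P (1.504 ± 0.29) and ZNF391 (0.55 ± 0.14). PRSS16, ZNF204P and ZNF391 lie between the middle and distal histone groups. Inside the proximal group 3 other genes were tested and 0 rose, and inside the middle and distal groups 0 were tested. The median over the 50 nearest tested genes that are not members was 0.20 to 0.27 for the chromosome 6 histone genes, and -0.06 for those on chromosomes 1 and 12. In the chromosome 1 stretch 2 other genes were tested and 0 passed by edgeR, with log2 fold changes of 0.38 and 1.11. With that median subtracted as an offset in the edgeR fit, the same 11 histone genes passed, with log2 fold changes from 0.77 and adjusted p up to 0.00687.

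**Figure D3:**
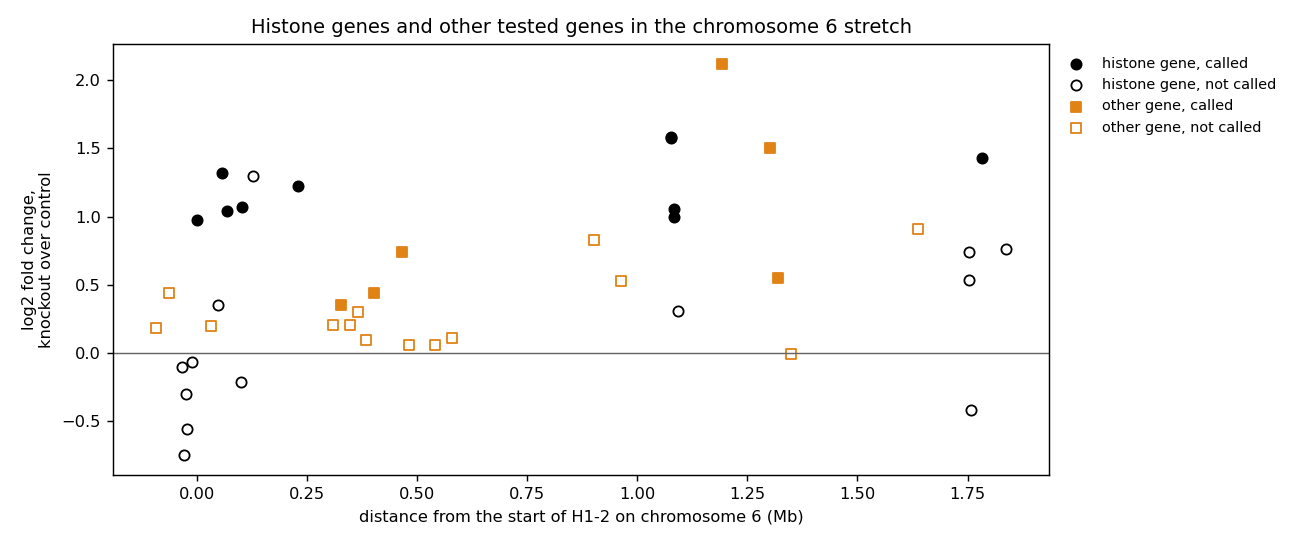
Log2 fold change, knockout over control, of the 23 tested histone genes (circles) and 20 other tested genes (squares) in the chromosome 6 stretch, against distance from the start of H1-2 in Mb. Filled symbols passed the edgeR test. The open circles just left of 0 are the genes from H4C1 to H3C3, all below the zero line.

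H2A and H2B genes are often arranged head to head, with a shared promoter between them. Among the 51 genes there are 8 such pairs, with 214 to 247 bases between the start sites. Both partners rose in 2 pairs, the H2B partner but not the H2A partner in 2, and neither passed in 4. The gap between the start sites is shown for the 4 pairs with a gene that rose, on the H2B strand, so that pairs in which both partners rose can be read beside pairs in which 1 did. Sequences are from RefSeq promoter windows (GRCh38.p14, minus strand), and capitals mark, on either strand, the octamer ATTTGCAT, CCAAT and TATAA.
H2BC11 and H2AC11, chr6:27132796-27133042, both rose: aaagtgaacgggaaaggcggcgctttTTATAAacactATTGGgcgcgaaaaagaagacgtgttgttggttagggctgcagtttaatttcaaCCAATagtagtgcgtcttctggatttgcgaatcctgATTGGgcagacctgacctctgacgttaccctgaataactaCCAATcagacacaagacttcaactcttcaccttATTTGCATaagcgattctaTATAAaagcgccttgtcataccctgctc
H2BC4 and H2AC6, chr6:26123927-26124171, both rose: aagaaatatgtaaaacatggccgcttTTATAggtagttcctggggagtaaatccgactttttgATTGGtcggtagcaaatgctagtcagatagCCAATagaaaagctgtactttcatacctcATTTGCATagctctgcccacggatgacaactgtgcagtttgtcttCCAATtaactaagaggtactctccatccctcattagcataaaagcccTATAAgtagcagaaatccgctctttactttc
H2BC12 and H2AC12, chr6:27146859-27147105, H2BC12 rose: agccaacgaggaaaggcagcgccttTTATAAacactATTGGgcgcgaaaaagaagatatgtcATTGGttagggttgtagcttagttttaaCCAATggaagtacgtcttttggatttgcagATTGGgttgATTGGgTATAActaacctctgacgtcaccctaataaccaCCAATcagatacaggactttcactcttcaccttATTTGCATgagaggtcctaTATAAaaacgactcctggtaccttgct
H2BC21 and H2AC20, chr1:149886683-149886917, H2BC21 rose: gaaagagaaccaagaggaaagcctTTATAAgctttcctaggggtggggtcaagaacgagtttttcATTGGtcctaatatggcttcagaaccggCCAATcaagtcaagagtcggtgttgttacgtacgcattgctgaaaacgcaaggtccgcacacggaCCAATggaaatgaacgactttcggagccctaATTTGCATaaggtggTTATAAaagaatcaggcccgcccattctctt
Each of the 4 gaps holds 1 octamer, at least 3 CCAAT boxes, and TATAA near both ends. In 300-base windows from 250 bases before to 50 after the start site, the octamer, which is bound by the factor OCT1 and known from H2B promoters, was present in 12 of 15 H2B and 9 of 10 H2A windows and in 0 of 22 windows of the other classes, against 1.80% of 27305 genes. Matches on both strands are counted, so the head-to-head partners share theirs. CCAAT was in 39 and TATAA in 44 of the 47 histone windows, against 35.7% and 21.1% of all genes. Of the 11 genes that rose 6 hold the octamer, as do 6 of 14 tested genes with a window that did not pass.

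H2BC21 and H2AC20, which face each other on chromosome 1, had log2 fold changes of opposite sign, although H2AC20 did not pass. The ratio of H2BC21 to H2AC20 counts was 8.43, 8.17 and 6.74 in knockout libraries, against 1.55, 1.88 and 2.79 in control libraries. H2BC21 was above control and H2AC20 below it in every knockout library. The ratio therefore had to separate the groups and adds no evidence of its own. For H2BC11 and H2AC11, which both rose, the ratio was 1.04, 0.809 and 1.01 in knockout libraries, against 1.00, 0.982 and 0.862 in control libraries, which overlapped. For H2BC4 and H2AC6 it was 0.142, 0.130 and 0.146 in knockout libraries, against 0.0791, 0.141 and 0.127 in control libraries, also with overlap. For H2BC12 and H2AC12 it was 300.5, 367.8 and 286.6 in knockout libraries, against 512.8, 123.3 and 200.7 in control libraries, which overlapped. H2AC12 had only 4 to 18 counts per library, so this ratio is imprecise.

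The annotated models of the histone genes ranged from a coding sequence alone to long or spliced transcripts. A GENCODE 29 transcript above 1000 bases, a length chosen after the values were seen, was annotated for 6 of the 11 genes that rose (H2AC6, H2AC11, H2BC15, H2BC21, H4C8 and H4C9). It was annotated for 4 of the 17 that did not pass (H2BC18, H2BC6, H3C10 and H4C16) and 8 of the 23 not tested. Genomic span is another quantity, since it can hold introns: H2BC4, H2BC5 and H2BC12, which also rose, have RefSeq spans of 10757, 13229 and 8566 bases and GENCODE 29 transcripts of at most 659, 789 and 381 bases. The longest transcript had 950 bases in H2BC11 and 642 in H1-2. Spliced transcripts were annotated for 6 of the 11, 3 of the 17 and 4 of the 23. These counts are a description of the models, with no test, and the genes that rose also had more counts.

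Genes that make, process or destroy histone mRNA were called about as often as other genes or less: 0 of 13, 2 of 21 and 1 of 11 passed, against 12.1% of all tested genes in either direction. Of 13 tested factors of histone transcription, 0 rose and 0 fell by edgeR, DESeq2 and limma-voom, with 1 higher at an unadjusted p under 0.05 and a median log2 fold change of -0.03. NPAT, the core of the histone locus body, stood at 70.0, 66.3 and 61.8 CPM in knockout libraries, against 59.2, 60.0 and 60.7 CPM in control libraries (0.14 ± 0.07, adjusted p = 0.242), and CASP8AP2, its partner FLASH, had -0.14 ± 0.09 (adjusted p = 0.326). SLBP had 124, 131 and 127 CPM in knockout libraries, against 125, 129 and 129 CPM in control libraries, a log2 fold change of 0.00 ± 0.06 (adjusted p = 0.994). Of 21 tested genes of 3′ end processing 2 fell and 0 rose by edgeR, with 1 higher in DESeq2 and at an unadjusted p under 0.05. These were the Sm protein genes SNRPB (208 ± 16.2 CPM in knockout cells and 260 ± 3.57 CPM in control cells, SD, n = 3 each; adjusted p = 0.0163) and SNRPE (52.3 ± 1.61 and 64.9 ± 0.744 CPM in knockout and control cells; adjusted p = 0.0164), whose products serve both U7 and the spliceosome. Both calls were lost without control replicate 2 or 3 (adjusted p 0.0745 to 0.091), that of SNRPB also without control replicate 1 (0.0531) and that of SNRPE without knockout replicate 3 (0.0826).

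Among 11 genes of histone mRNA decay 1 rose, ERI1, the nuclease that trims the stem-loop, at 62.9, 58.7 and 57.5 CPM in knockout libraries, against 49.1, 48.9 and 48.2 CPM in control libraries (0.29 ± 0.07, adjusted p = 0.0258). Of 16 genes of polyadenylation 1 rose, CPSF1, a subunit of the cleavage complex, at 140, 161 and 169 CPM in knockout libraries, against 111, 115 and 112 CPM in control libraries (0.48 ± 0.08, adjusted p = 0.00517). Neither list held a fall by edgeR, DESeq2 or limma-voom, with 2 and 1 falls at an unadjusted p under 0.05. In the 21 tested histone chaperone genes 1 rose and 2 fell: the fork repair factor TONSL (0.32 ± 0.09), and the nucleosome assembly genes NAP1L1 (-0.34 ± 0.06) and NAP1L4 (-0.23 ± 0.06). Calls in either direction made up 14.3% of the chaperone list and 6.25% of the polyadenylation list, against 12.1% of all tested genes. CHAF1A, of the replication-coupled assembly factor CAF-1, had 0.04 ± 0.07 and the chaperone ASF1B -0.12 ± 0.08, and neither passed. CPSF1 kept its call when each library was left out, and ERI1 lost it without knockout replicate 3 or any control replicate (adjusted p 0.0708 to 0.123). NAP1L1 lost it without knockout or control replicate 3 (0.0537 and 0.0528), and NAP1L4 and TONSL lost it without any library other than knockout replicate 1 (0.0576 to 0.175). CPSF1 and TONSL lie close together on chromosome 8 (144393231 to 144409335 and 144428775 to 144444440). The regional offset was fitted for the histone genes only. Whether called genes of any list share a shift with their chromosomal neighbours was not tested.

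Histone variant genes, most of which make polyadenylated mRNA outside S phase as well, had a median of 0.11 over 11 tested. H2AJ, which rose, had 36.3, 35.2 and 44.0 CPM in knockout libraries, against 30, 31.3 and 28.3 CPM in control libraries (0.37 ± 0.10, adjusted p = 0.0453). H2AX, the variant phosphorylated at DNA breaks, averaged 591 ± 98.2 CPM in knockout cells and 489 ± 19.8 CPM in control cells (SD, n = 3 each) and did not pass (0.27 ± 0.11, adjusted p = 0.131). It passed without knockout replicate 1 (0.401, adjusted p = 0.000377), without the filter on low counts (0.0181) and with the replicate number as a block (0.0248). H2AZ1 (0.15 ± 0.08) and the H3.3 gene H3-3B (0.06 ± 0.08) did not pass either, but did without knockout replicate 1 (0.24 and 0.149, adjusted p 0.00561 and 0.0397). The call of H2AJ was lost without knockout replicate 3 or any control replicate (adjusted p 0.112 to 0.181) and in limma-voom (0.0508).

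Of 25 tested S-phase genes other than histone genes, 8.0% were called by edgeR in either direction, against 12.1% of all tested genes. By edgeR, DESeq2 or limma-voom 0 rose, with 1 higher at an unadjusted p under 0.05, and 2 fell. Those were RRM1 (-0.35 ± 0.06, adjusted p = 0.00684) and PCNA (-0.37 ± 0.08, adjusted p = 0.0189), and RRM2 had 0.16 ± 0.13 (adjusted p = 0.483), and 0.302 without knockout replicate 1, where it passed (adjusted p = 0.0188). The summed level of the 25 genes was 4027, 4787 and 4628 CPM in knockout libraries, against 4314, 4563 and 4541 CPM in control libraries, which overlapped. Among 13 tested genes tied to leaving the cycle, 3 rose and 2 fell, or 38.5% called in either direction, against 12.1% of all tested genes. The inhibitor of cyclin-dependent kinases CDKN1A had 274, 237 and 262 CPM in knockout libraries, against 171, 201 and 198 CPM in control libraries (0.44 ± 0.08, adjusted p = 0.00944). RBL2 (0.50 ± 0.08) and CDKN2C (0.33 ± 0.06) rose too, and CDKN2D fell by 0.41 ± 0.08 on the log2 scale. The summed level of this list was 970, 876 and 911 CPM in knockout libraries, against 794, 851 and 858 CPM in control libraries. That sum includes CDKN1A, so it does not show a rise across the list, whose median log2 fold change was 0.03. RBL2 kept its call when each library was left out. The other calls named here were lost without knockout replicate 3 (adjusted p 0.0504 for RRM1 to 0.0637 for PCNA), and all but CDKN1A also without control replicate 3 (0.0533 for RRM1 to 0.107 for PCNA). Those of PCNA, CDKN2C and CDKN2D were lost without control replicate 2 too (0.0622 to 0.0934). The part of these cycle genes in the histone result was not tested.

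A list of RNAs that mostly lack a poly-A tail was set beside the histone genes. Of its 495 counted symbols, mostly small nucleolar and small nuclear RNAs, 8 passed the filter. By edgeR 12.5% of these were called in either direction, against 12.1% of all tested genes. Of the 8, 0 rose by edgeR, DESeq2 or limma-voom (1 at an unadjusted p under 0.05) and 1 fell. That was SNORD67, with 2, 0 and 2 counts in knockout libraries, against 19, 13 and 21 in control libraries. Their summed level was 172, 79.5 and 96.5 CPM in knockout libraries, against 132, 100.3 and 95.2 CPM in control libraries, of which MALAT1 and NEAT1 made up 145.6, 48.0 and 60.7 CPM in knockout libraries and 103.6, 64.5 and 67.8 CPM in control libraries. Poly-A selection can capture both, since NEAT1 has a polyadenylated short form and MALAT1 an A-rich stretch. Without them, a step added after the values were seen, the sum was 26.7, 31.4 and 35.7 CPM in knockout libraries, against 28.7, 35.8 and 27.4 CPM in control libraries. RN7SL1, the RNA of the signal recognition particle, had 15.4, 23.2 and 26.1 CPM in knockout libraries, against 16.0, 24.7 and 17.8 CPM in control libraries. The groups overlapped in all of these sums and in RN7SL1, and the part of untailed RNA in the histone result was not tested.

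**Figure D4:**
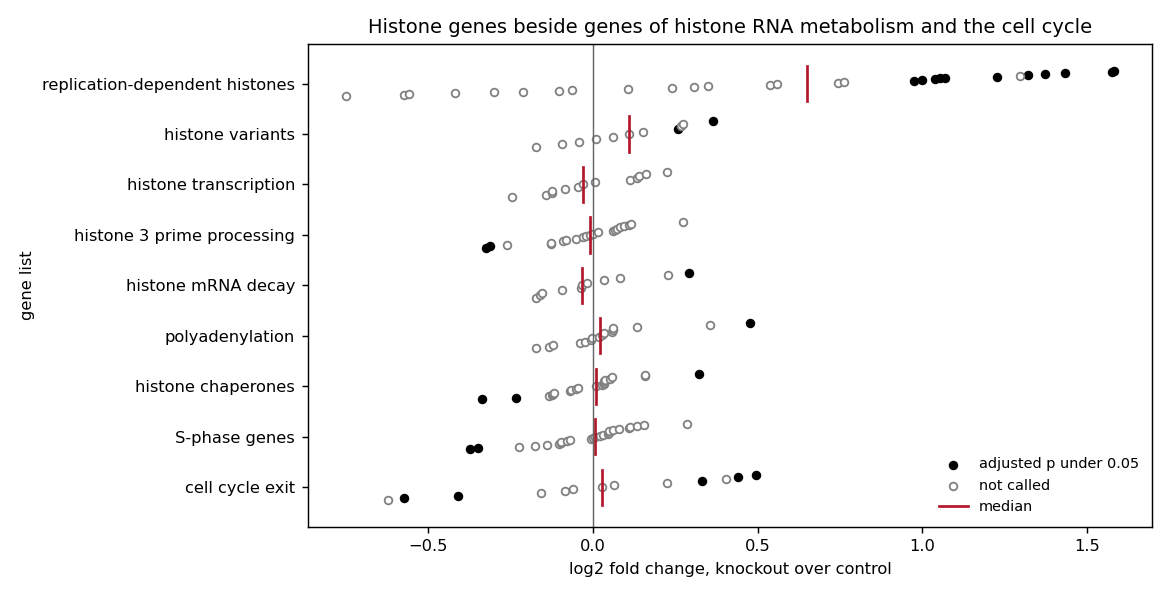
Log2 fold change, knockout over control, of the tested genes of 9 lists, with the median as a line; the RNAs without a poly-A tail and the cell line markers, with medians of -0.26 and -0.13, are not drawn. The top row holds the 28 tested replication-dependent histone genes, with a median of 0.65; the medians of the other 8 lists drawn lie between -0.03 and 0.11.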

How the data were processed

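RNA from RNASEH2A knockout and control MDA-MB-231 cells was sequenced from strand-specific poly-A libraries, 3 per group, per the labels' protocols. FastQC, STAR version 2 and the GRCh38 build are named in the submitters' processing notes. No source used here names the counter, its strand setting or the annotation. The deposited count table holds raw read counts per gene symbol, and the second deposited table holds log2 CPM computed by the authors, whose filter and prior count no source used here states, and served 1 alternative.

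Groups were taken from the genotype label. Counts were tested with edgeR 4.0.16 in R 4.3.3 (filterByExpr, TMM, quasi-likelihood F test of the group, two-sided, Benjamini-Hochberg over 14199 tested genes, called at an adjusted p under 0.05). CPM levels use TMM-scaled library sizes. Standard errors are the size of the log2 fold change over the root of F. On simulated counts of this comparison with 200 changed genes, 85.3% of those changed 2-fold were recovered among the genes kept by the filter (14040). Of 176 calls 10.2% were false, which is above the adjusted p threshold of 0.05. The changed genes were drawn at random over all depths, so the recovery does not describe histone genes with few counts. Every pair of replicates differed by more than sampling noise (chi-square per degree of freedom 2.48 to 37), so none was counted as 1 library deposited again.

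The histone genes and the lists were chosen with earlier results of these data known. Values are given for every tested histone gene and for untested ones with at least 10 counts. Called list genes are named in full for histone transcription, 3′ processing and variants, and up to 4 by smallest p elsewhere, besides 11 names fixed by hand. PRSS16, HCG11, ZNF204P, ZNF391, BTN2A1 and BTN2A2 were named after their values were seen. Positions come from RefSeq on GRCh38.p14, which placed all 51 genes; GENCODE 29 models matched all but H3C2 and H3C3, and RefSeq promoter windows 47. Members of these families without a row in the table were not analysed here, and 1 histone variant is not reported here. Alternatives were DESeq2 1.42.0, limma-voom (limma 3.58.1), other scalings and filters, a replicate block, a test against 1.5-fold, a regional offset and leaving out each library.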

Additional observations from a re-analysis of the deposited data

How the results depend on the processing

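The same 11 histone genes were called higher, and 0 lower, under all 16 alternatives, with an adjusted p of at most 0.0452, which was reached in the test against a minimum change of 1.5-fold. The number called was 12 without a filter on low counts, and 11 to 13 when each library was left out, with 10 to 12 on chromosome 6 and 1 on chromosome 1. H2BC17, H2BC6 and H3C10 lay near the threshold, and each passed under some of these settings. The median over tested members depends on which genes are tested: it was 1.02 when genes under a mean of 1 CPM were dropped, where 18 members remain in the test, 0.47 in the deposited log2 CPM, 0.48 with the regional median subtracted, and 0.38 to 0.77 when each library was left out. Genes with small fold changes and no call changed sign in some of these: H2AC12 (-0.11 to 0.87), H2BC18 (-0.093 to 0.28), H3C13 (-0.027 to 0.58), H3C3 (-0.24 to 0.20), H4C1 (-0.43 to 0.22), SLBP (-0.015 to 0.018) and RRM2 (-0.001 to 0.302), and the cause was not tested. No call of a list gene other than SNORD67 passed the 1.5-fold test, and of 374 repeated values of list genes, 59 lost the call and 6 gained it. Over all genes 1718 were called, against 153 for the 1.5-fold test and 524 (without knockout replicate 3) to 3430 (without knockout replicate 1) with a library left out.

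With the replicate number as a block 14 histone genes were called, H2BC17, H2BC6 and H3C10 besides the 11, of which 13 are on chromosome 6, and 3099 genes in all. The labels do not say that the numbers pair the samples: deviations of same-numbered libraries correlated at 0.316, 0.139 and 0.0855, and knockout replicate 2 correlated better with control replicate 3 (0.141) than with control replicate 2. Depth limits the members with few counts, whose standard errors reach 0.65.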

Other observations

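Among the histone genes, 11 had an even count above 0 in all 6 libraries, H2AC11, H4C9 and H4C1 among them, while H1-2, H2AC6 and H2BC12 had both odd and even counts. The 23 histone genes that were not tested summed to 1.59, 2.62 and 2.67 CPM in knockout libraries, against 1.32, 2.03 and 2.02 CPM in control libraries, which overlapped.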
